A study of Homo sapiens with 5 samples.

Results

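Lysine acetylation of histones and other proteins is written by acetyltransferases, erased by deacetylases and read by bromodomain proteins. SWI/SNF complexes, several of whose subunits carry bromodomains, use ATP to move nucleosomes. Described here are 43 human genes of this machinery in C4-2B prostate cancer cells, taken by name from a list of acetyltransferase, deacetylase, bromodomain and SWI/SNF genes. All 43 were found among the 58812 gene identifiers counted. The list holds 9 acetyltransferases, 17 deacetylases, the BET bromodomain readers BRD2 and BRD3, and 15 SWI/SNF subunits.

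C4-2B is a castration-resistant derivative of the LNCaP prostate cancer line and expresses HOXB13, a homeodomain protein that binds DNA beside the androgen receptor. The study compared unaltered parental cells (2 libraries) with HOXB13 K13A mutant cells, namely clone C4K13A (2 libraries) and clone C5K13A (1 library). All were grown in the same C4-2B medium with no further treatment named, and each mutant group is a single clone. In K13A a lysine of HOXB13 is replaced by alanine, which cannot be acetylated. Gene-level counts cannot show this substitution, so no check of the labels was made from HOXB13. Total RNA depleted of ribosomal RNA was sequenced.

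Acetyltransferases such as CREBBP and EP300 act as coactivators of transcription factors, among them the androgen receptor in prostate cells. Most deacetylases of class I work inside corepressor complexes in the nucleus. Those of class IIa shuttle between nucleus and cytoplasm and have little catalytic activity of their own. SWI/SNF exists in several assemblies that share a core with 1 of the ATPases SMARCA2 and SMARCA4. ARID1A and ARID1B mark the canonical BAF form, ARID2, PBRM1 and BRD7 the PBAF form, and BRD9 the non-canonical form.

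Total counts ran from 43190276 to 57282373 per library, and 27337 to 30647 genes had at least 1 count. All 9 prostate luminal markers were counted in every library. Their summed levels were 4632 to 6704 CPM (counts scaled to a common library total) in parental and 4591 to 5426 CPM in mutant libraries. The sums hide differences between markers. Fitted log2 changes of the 9 over all mutant libraries ran from -1.36 to 0.59, 3 above 0 and 6 below (smallest edgeR adjusted p 0.36). Of the 6 fibroblast, 5 leukocyte and 5 endothelial markers, 3, 1 and 2 had counts in every library. Their sums were at most 9.82, 0.327 and 5.73 CPM, with LUM and CD3E at 0 throughout. Mitochondrial ribosomal RNA varied widely, at 28.0 CPM in parental library 1 and 63.2 CPM in C4K13A library 1, against 1761, 365 and 669 CPM in parental library 2, C4K13A library 2 and C5K13A. Differences within each of these sides are given below. The low side sets C4K13A library 1 against parental library 1, and the high side sets C4K13A library 2 and C5K13A against parental library 2. C5K13A enters the high side only, so a difference between the sides cannot be told apart from a difference between the clones. The labels do not say whether the libraries of a group stem from different cultures, and the p-values below therefore speak only for the variation among 5 libraries, part or all of which may be technical.

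None of the 43 genes passed the threshold (adjusted p under 0.05) when all 3 mutant libraries were compared with the 2 parental ones. The 42 that could be tested gave 0 calls by edgeR's quasi-likelihood test with Benjamini-Hochberg adjustment, 0 by DESeq2 and 0 by limma-voom, against a background of 0.203%, 2.69% and 0.0533% of 20649 genes. At an unadjusted p under 0.05 there were 4, against 11% of all genes tested. Of these HDAC4, HDAC11 and PBRM1 were lower (6.68% of all genes) and HDAC3 was higher (4.3%). The fitted log2 fold changes ran from -0.82 to 0.40 with a median of 0.03 (-0.005 over all genes), 23 above 0 and 19 below (49.4% of all genes were above 0). A log2 change under 0.5 in size was fitted for 39 of the 42 (92.9%), compared with 72.6% of all genes tested. It was fitted for 89.7% of the 8832 genes at or above 13.3 CPM, a level reached by 38 of the genes described. That level was set from the described genes' own means. The 92.9% also counts tested genes below it, HDAC4 and HDAC11 among them, so these shares do not cover the same range of levels. The 95% interval lay within 2-fold in both directions for 39 of 42, the exceptions being HDAC4, HDAC11 and PBRM1. In bulk RNA, fewer cells of a kind and less RNA per cell cannot be told apart.

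**Figure D1:**
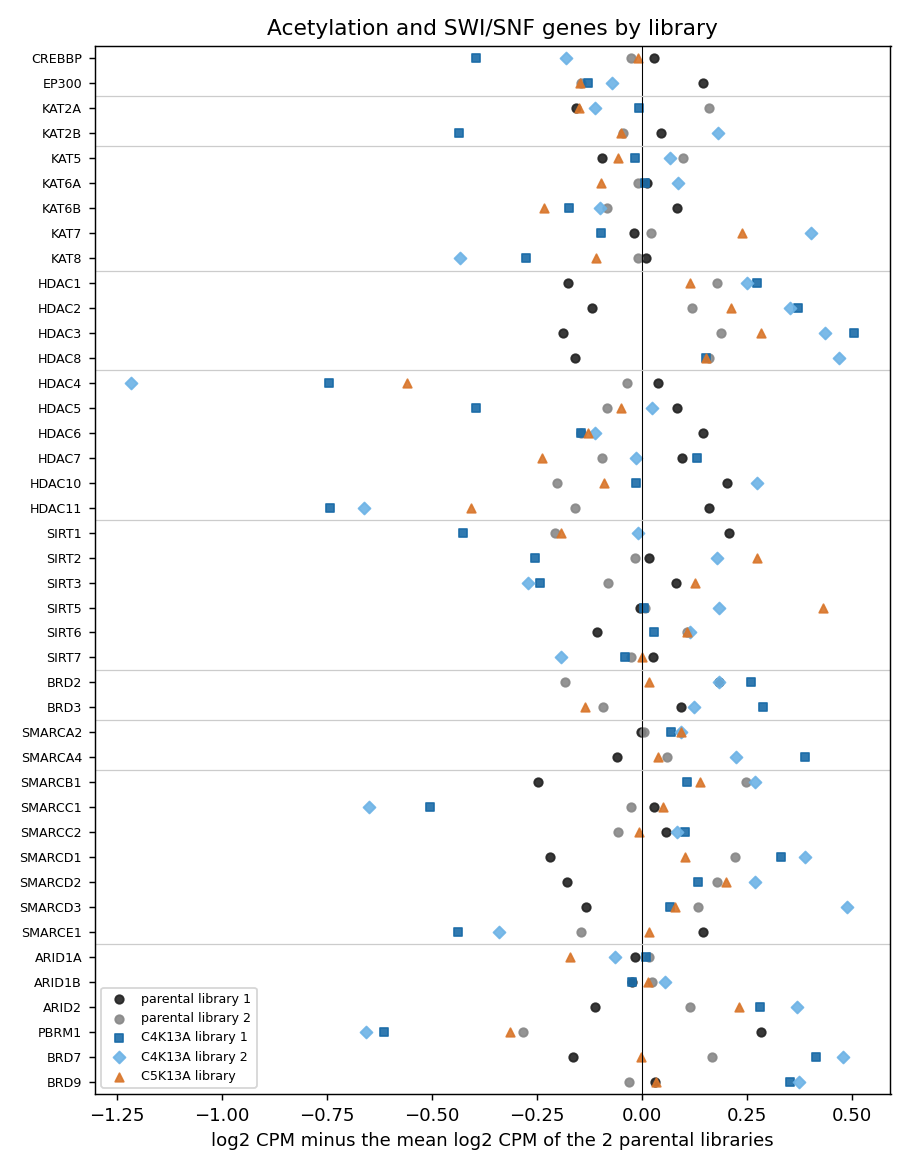
Level of each gene in each of the 5 libraries (x axis, log2 CPM minus the mean log2 CPM of both parental libraries), grouped by family, with HDAC9 left out for its low counts. HDAC4, HDAC11 and PBRM1 lie to the left of both parental libraries in all 3 mutant libraries, and most other genes have mutant and parental points intermixed.

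Every mutant library lay above both parental libraries for 5 tested genes (HDAC2, HDAC3, SMARCA2, ARID2 and BRD9) and below both for 5 (KAT6B, KAT8, HDAC4, HDAC11 and PBRM1). Over all genes tested, 13.6% were separated upwards and 14.9% downwards. In 25 of the 42 genes the parental libraries differed from each other by more than the size of the fold change. The sign was the same within both ribosomal RNA sides for 26 of 42. Among genes named below, the low and the high side differed in sign for EP300 (-0.27 and 0.03), KAT2A (0.15 and -0.29), KAT2B (-0.48 and 0.11) and SIRT1 (-0.63 and 0.11).

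**Figure D2:**
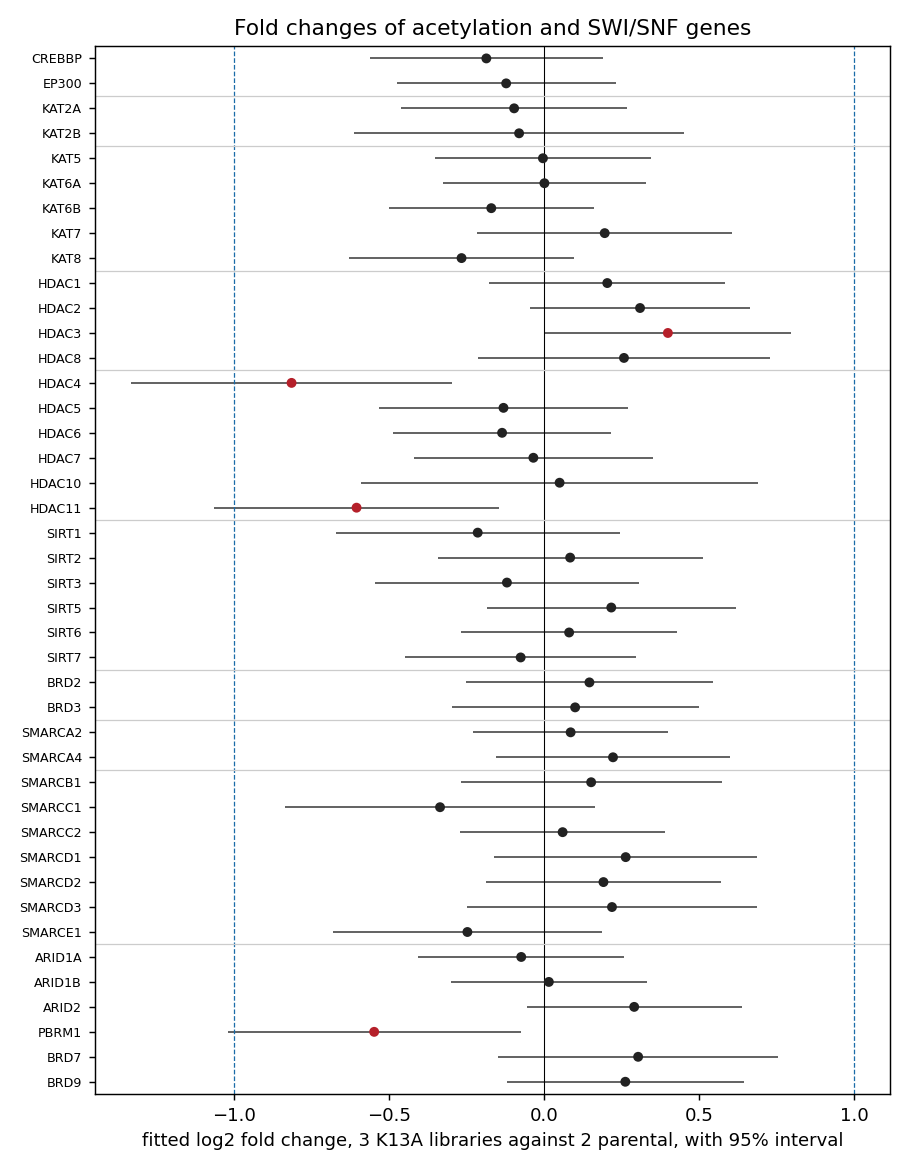
Fitted log2 fold change of 42 genes with its 95% interval (x axis), 3 mutant against 2 parental libraries, with dashed lines at 2-fold and red points for an unadjusted p under 0.05. The 4 red points are HDAC3, HDAC4, HDAC11 and PBRM1, and only the intervals of the last 3 cross a 2-fold line.

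The acetyltransferases were close to their parental levels, with 2 of 9 above 0 and 7 below, and none called. CREBBP, which encodes CBP, was at 215 and 207 CPM in the parental, 161 and 186 CPM in the C4K13A and 210 CPM in the C5K13A libraries. C5K13A thus sat between the parental libraries and C4K13A below them, for a log2 change of -0.19 ± 0.16 (SE, edgeR adjusted p 0.717). Its paralogue EP300, encoding p300, was at 185 and 152, 153 and 159, and 151 CPM in the same order, a log2 change of -0.12 ± 0.15 (edgeR adjusted p 0.81). The mutant libraries overlapped the parental ones for both, and the intervals allow changes between -0.56 and 0.19 for CREBBP and between -0.48 and 0.23 for EP300.

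In the GCN5 family, KAT2A, the catalytic subunit of SAGA and ATAC, was at 111 and 139, 124 and 115, and 112 CPM. KAT2B, which encodes PCAF, was at 11.3 and 10.6, 8.10 and 12.4, and 10.6 CPM. Neither separated the groups, and the log2 changes were -0.10 ± 0.16 and -0.08 ± 0.23. In the MYST family the log2 changes ran from -0.27 to 0.19. KAT8, which acetylates lysine residues of histone H4, was at 40.2 and 39.7 CPM in parental cells, 33.0 and 29.6 in clone C4K13A and 37.1 in clone C5K13A, a log2 change of -0.27 ± 0.16 (edgeR adjusted p 0.574). KAT6B, a histone H3 acetyltransferase, was at 65.8 and 58.7, 55.1 and 57.9, and 52.8 CPM (log2 change -0.17 ± 0.14). For both genes the mutant libraries were the lower ones, by less than the test could separate from the spread.

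Class I deacetylases all had fitted values above 0 (4 of 4, from 0.20 to 0.40). Mutant and parental libraries overlapped for HDAC1 and HDAC8, whose parental libraries differed from each other by 0.35 and 0.32 in log2. The low and high side differences were 0.45 and 0.004 for HDAC1, and 0.31 and 0.15 for HDAC8. HDAC3, the enzyme of the NCoR and SMRT complexes, was at 30.9 and 40.1 CPM in parental libraries, 50.0 and 47.6 in those of C4K13A and 42.8 in that of C5K13A. All 3 mutant libraries were above both parental ones, and the log2 change was 0.40 ± 0.17 (95% interval 0.003 to 0.79, edgeR adjusted p 0.454). The log2 difference was 0.69 among the libraries low in mitochondrial ribosomal RNA and 0.17 among those high in it. The part of RNA composition in this difference was not tested. HDAC2, a subunit of NuRD, Sin3 and CoREST, was at 106 and 125, 149 and 147, and 134 CPM, a log2 change of 0.31 ± 0.15 (edgeR adjusted p 0.509). Within the low and the high side its log2 differences were 0.49 and 0.16.

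Class II and class IV deacetylases had 1 fitted value above 0 and 5 below, and gave the lowest values of the set. HDAC4, a class IIa enzyme that binds MEF2 factors, was at 18.4 and 17.5 CPM in the parental libraries. Its C4K13A levels were 10.7 and 7.71 CPM, and its C5K13A level was 12.2 CPM. Parental libraries were within 1 CPM of each other and every mutant library was lower. The log2 change over all mutant libraries was -0.82 ± 0.22 (95% interval -1.33 to -0.30, edgeR adjusted p 0.258), with -0.78 on the low and -0.85 on the high ribosomal RNA side. The tested protein-coding genes within 5 Mb of HDAC4 had a median log2 change of 0.07. Over 15 alternative settings its adjusted p ran from 0.0254 to 0.89, and the lowest, from a fit without a filter on low counts, was the only one to pass.

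HDAC11, the single class IV enzyme, was at 18.4 and 14.8, 9.86 and 10.4, and 12.4 CPM. Mutant libraries were again all lower, with a log2 change of -0.61 ± 0.20 (edgeR adjusted p 0.329) that was -0.90 on the low and -0.38 on the high side. HDAC11 lies on chromosome 3, where tested protein-coding genes within 5 Mb had a median log2 change of -0.21. HDAC9, another class IIa gene, was below the filter on low counts in the comparison of all mutant libraries. It had 12 and 3 reads in parental, 1 and 0 in C4K13A and 0 in C5K13A. The pooled 15 parental reads against 1 mutant read correspond to a scaled ratio of 18.4 (exact 95% interval 2.84 to 776, counting error only), and 12 of the 15 came from 1 library. The interval treats each read as its own molecule, which reads lacking molecular identifiers need not be.

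HDAC4 and HDAC3 had the largest fitted changes in the 2 directions, so the 250 bases before their RefSeq start sites are shown, 5′ to 3′ on the gene's strand, with the GC box letters GGGCGG or CCGCCC in capitals. The first is GRCh38.p14 chr2:239401650-239401899 (minus strand, before the outermost of 5 listed HDAC4 starts), and the second is chr5:141636850-141637099 (minus strand).
HDAC4: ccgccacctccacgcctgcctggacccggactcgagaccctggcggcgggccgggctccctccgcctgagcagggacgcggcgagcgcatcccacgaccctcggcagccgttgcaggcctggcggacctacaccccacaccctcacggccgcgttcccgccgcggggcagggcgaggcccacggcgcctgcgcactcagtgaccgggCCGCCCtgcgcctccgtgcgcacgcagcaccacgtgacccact
HDAC3: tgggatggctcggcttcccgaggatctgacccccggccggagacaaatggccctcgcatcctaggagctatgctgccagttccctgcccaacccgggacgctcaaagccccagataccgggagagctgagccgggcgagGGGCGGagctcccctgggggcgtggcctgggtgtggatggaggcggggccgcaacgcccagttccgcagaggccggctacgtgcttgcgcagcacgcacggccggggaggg
Both stretches are rich in G and C (76.8% and 70.8%) and hold 1 GC box each. Over the 65 listed promoters of 36 of the genes, 35 held a GC box on either strand, compared with 42.6% of 35116 promoters of the same length. The letters CCAATAAA, a form of the HOXB13 site, were found on either strand in 0 of the 65 (0.863% of all promoters). The form CTCGTAAA was found in 1, belonging to HDAC9 (0.117% of all). No binding was measured here, and a match or its absence in these windows says nothing of the factor.

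The NAD-dependent sirtuins had 3 values above 0 and 3 below, from -0.21 to 0.22. SIRT5, a mitochondrial enzyme that removes acidic acyl groups, was at 25.7 and 25.9 CPM in parental cells, 25.9 and 29.3 in clone C4K13A and 34.8 in clone C5K13A. SIRT1, a nuclear deacetylase of histones and transcription factors, was at 29.4 and 22.1, 19.0 and 25.3, and 22.3 CPM. Libraries of the groups overlapped for both, with log2 changes of 0.22 ± 0.17 and -0.21 ± 0.20 (edgeR adjusted p 0.689 and 0.733).

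The BET readers bind acetylated histone tails at active promoters and enhancers. BRD2 was at 323 and 250 CPM in parental libraries, 341 and 323 in those of C4K13A and 288 in that of C5K13A, and BRD3 at 82.2 and 72.2, 94.1 and 84.0, and 70.1 CPM. Parental and mutant libraries overlapped for both, and the log2 changes were 0.15 ± 0.17 and 0.10 ± 0.17. BRD2 and BRD3 were the only BET genes on the list.

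Of 15 SWI/SNF genes, 11 had fitted values above 0 and 4 below, with 0 called and a median of 0.15. SMARCA4, the ATPase BRG1, was at 241 and 262 CPM in parental cells, 329 and 293 in clone C4K13A and 258 in clone C5K13A, for a log2 change of 0.22 ± 0.16 (edgeR adjusted p 0.66). SMARCA2, the alternative ATPase BRM, was at 67.1 and 67.4, 70.5 and 71.6, and 71.7 CPM. Its groups did not overlap, but the log2 change of 0.08 ± 0.14 was small. ARID2, the subunit that organises PBAF, was at 81.0 and 94.7, 106 and 113, and 103 CPM, a log2 change of 0.29 ± 0.15 (edgeR adjusted p 0.519). SMARCD1, a core subunit, was at 37.6 and 51.0, 55.1 and 57.3, and 47.1 CPM (log2 change 0.26 ± 0.18), with C5K13A between the parental libraries. The log2 difference of SMARCD1 was 0.55 on the low and 0.02 on the high ribosomal RNA side, and its fitted change ran from 0.06 to 0.50 over 15 alternatives. For SMARCA4 the side values were 0.45 and 0.07, and for ARID2 0.39 and 0.19.

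PBRM1, the bromodomain-rich subunit of PBAF, was the lowest of the SWI/SNF genes relative to parental cells. It was at 197 and 133 CPM in parental libraries, 106 and 102 in those of C4K13A and 130 in that of C5K13A, so that C5K13A lay just under parental library 2. The log2 change was -0.55 ± 0.21 (edgeR adjusted p 0.392), and it was -0.90 on the low and -0.20 on the high ribosomal RNA side. Without parental library 1 it was -0.24, and without parental library 2 it was -0.80. PBRM1 also lies on chromosome 3, and tested protein-coding genes within 5 Mb of it had a median log2 change of -0.15.

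**Figure D3:**
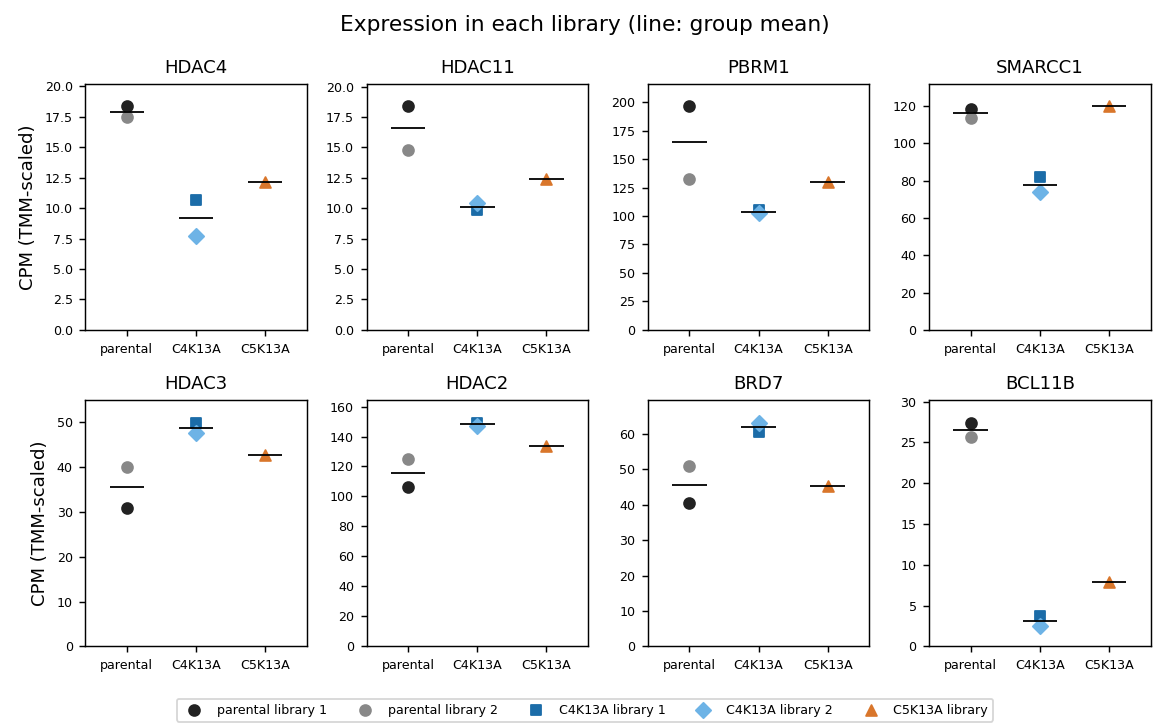
CPM (y axis from 0) in each library of 7 of the genes and of BCL11B, with a line at each group mean, for parental cells and the clones C4K13A and C5K13A. HDAC4, HDAC11, PBRM1 and BCL11B are lower in all 3 mutant libraries, and SMARCC1 and BRD7 of C5K13A stand at parental level.

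The clones were also compared with parental cells one by one, in 1 fit of all libraries in which the lone C5K13A library was assumed to vary like the others. These comparisons share the parental libraries. For C4K13A, 0 of 43 genes were called by edgeR (0.699% of 22743 genes tested) and 0 by limma-voom (0.378%). DESeq2 called 1, HDAC4, which is 1 of 43 against 3.28% of all genes. At an unadjusted p under 0.05 there were 6 (12.2% of all genes), with HDAC4, HDAC11, PBRM1 and SMARCC1 lower (7.93% of all genes) and HDAC3 and BRD7 higher (4.27%). For C5K13A against parental, edgeR, DESeq2 and limma-voom called 0 (0.0484%, 1.03% and 0% of all genes), and 0 had an unadjusted p under 0.05 (6.45% of all). Apart from HDAC9, log2 changes ran from -0.96 to 0.46 in C4K13A and from -0.55 to 0.44 in C5K13A. HDAC9 passed the filter of this fit and was not called. Its log2 changes of -3.35 in C4K13A and -5.72 in C5K13A rest on the few reads given above.

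HDAC4 had a log2 change of -0.96 ± 0.24 in C4K13A (edgeR adjusted p 0.142) and of -0.55 ± 0.29 in C5K13A (edgeR adjusted p 0.789). Without parental library 2, HDAC4, HDAC11 and PBRM1 passed the threshold in C4K13A with edgeR adjusted p of 0.0476, 0.0419 and 0.0121, 3 of 42 genes in a fit that called 7.59% of all genes. That share is near the background and is no result about these genes. Over all 13 alternatives for C4K13A the adjusted p of HDAC4 ran from 0.00949 to 0.751. HDAC11 and PBRM1 had log2 changes of -0.71 ± 0.22 and -0.66 ± 0.22 in C4K13A, and of -0.41 ± 0.27 and -0.34 ± 0.27 in C5K13A. In the comparison of C5K13A with C4K13A, which tests whether the clones' changes differ, HDAC4 had a log2 difference of 0.41 ± 0.28 (95% interval -0.25 to 1.06, edgeR adjusted p 0.913).

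SMARCC1, the core scaffold BAF155, was at 118 and 114 CPM in parental cells, 81.8 and 74.0 in clone C4K13A and 120 in clone C5K13A. Only the C4K13A libraries were low. The log2 change was -0.58 ± 0.17 in C4K13A (edgeR adjusted p 0.232) and 0.05 ± 0.21 in C5K13A. Between the clones, 0 of 43 genes were called by edgeR, DESeq2 or limma-voom (0.066%, 0.8% and 0% of all genes). SMARCC1 was the 1 gene with an unadjusted p under 0.05 there (6.42% of all), at a log2 difference of 0.63 ± 0.21 (edgeR adjusted p 0.667).

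BRD7, a PBAF subunit, was at 40.5 and 50.9 CPM in parental libraries, 60.5 and 63.2 in those of C4K13A and 45.4 in that of C5K13A, with log2 changes of 0.44 ± 0.19 (edgeR adjusted p 0.405) and -0.01 ± 0.23. Its log2 difference was 0.58 on the low ribosomal RNA side, which holds C4K13A but not C5K13A, and 0.07 on the high side, which holds both clones. Several of these genes lay among neighbours with a like sign in C4K13A. Tested protein-coding genes within 5 Mb had median log2 changes there of -0.23 around SMARCC1, -0.28 around PBRM1 and -0.30 around HDAC11, all on chromosome 3. The windows around SMARCC1 and PBRM1 overlap, and each holds the other gene. Around BRD7 on chromosome 16 the median was 0.39. Around HDAC4 on chromosome 2 and HDAC3 on chromosome 5 the medians were 0.08 and -0.11. The part of the neighbourhood in the single-gene values was not tested. Of BRD7's exon bases 42.4% are shared with genes on the other strand, and of KAT5's 38.6%, and without strand in the counting, which is not stated, reads of such pairs cannot be told apart. In all, 7 of the 43 genes share over 10% of their exon bases in this way.

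Further genes of the pathway were taken from lists of 118 other acetyltransferases and coactivators, complex subunits, readers, SWI/SNF subunits and enzymes of acetyl-CoA and NAD supply. Of 115 tested, edgeR called 0 in all mutant libraries against parental (0.203% of all genes), and the median log2 change was 0.02. At an unadjusted p under 0.05 there were 16 (11% of all genes), 7 higher (4.3%) and 9 lower (6.68%). In C4K13A edgeR called 1 of 115, BCL11B, against 0.699% of all genes. At an unadjusted p under 0.05 there were 13 (12.2% of all genes), 5 higher (4.27%) and 8 lower (7.93%). In C5K13A edgeR called 0 (0.0484% of all genes), with 3 at an unadjusted p under 0.05 (6.45% of all genes). BCL11B, a zinc finger transcription factor that is also a BAF subunit, fell in C4K13A. It was at 27.4 and 25.7 CPM in parental cells, 3.79 and 2.55 in clone C4K13A and 7.92 in clone C5K13A. The log2 change in C4K13A was -3.06 ± 0.27 (edgeR adjusted p 0.0062), and the gene was called under all 13 alternatives tried for that comparison. C5K13A was lower than both parental libraries too, with a log2 change of -1.74 ± 0.32 (edgeR adjusted p 0.221), and the difference between the clones was 1.32 ± 0.30 (edgeR adjusted p 0.318). Over all mutant libraries the log2 change was -2.48 ± 0.41 (edgeR adjusted p 0.0856). In that comparison it was called under 4 of 15 alternatives, DESeq2 and the edgeR fit without C5K13A (adjusted p 0.0107) among them, and the adjusted p over the alternatives ran up to 0.592.

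Among the further readers, MLLT3, whose YEATS domain binds acyl-lysine, was at 11.7 and 10.1 CPM in parental libraries, 5.25 and 3.93 in those of C4K13A and 3.42 in that of C5K13A. All mutant libraries were lower, with a log2 change of -1.38 ± 0.25 (edgeR adjusted p 0.122). It was called under 2 of 15 alternatives, over which the adjusted p ran from 0.00016 to 0.674. ATAD2, a bromodomain ATPase, was at 117 and 157 CPM in parental, 232 and 203 CPM in clone C4K13A and 173 CPM in clone C5K13A, a log2 change of 0.56 ± 0.20 (edgeR adjusted p 0.356). The cohesin acetyltransferase ESCO2 was at 16.7 and 22.9, 30.7 and 30.8, and 28.9 CPM, and the nuclear receptor coactivator NCOA1 at 61.9 and 83.9, 84.4 and 129, and 112 CPM. Their log2 changes were 0.61 ± 0.18 and 0.57 ± 0.22.

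For the other lists the values with the smallest p were as follows. ING4, a subunit of the KAT7 complex, had a log2 change of -0.73 ± 0.24 and BRPF3, a scaffold of such complexes, one of 0.42 ± 0.15. MTA2 of NuRD was at 0.44 ± 0.18 and RCOR1 of CoREST at 0.37 ± 0.15. The SWI/SNF subunit BICRAL was at -0.27 ± 0.17. ACSS1, the mitochondrial acetyl-CoA synthetase, was at -0.76 ± 0.27 and the citrate carrier SLC25A1 at 0.28 ± 0.17. None of these 7 was called by edgeR in the comparison as described. For ACSS1 the parental libraries themselves differed, at 85.4 and 41.8 CPM against 36.8 to 38.7 CPM in the mutant libraries, and over 15 alternatives its log2 change ran from -1.18 to -0.15. ING4 was at 24.5 and 15.3 CPM in parental against 10.7 to 13.5 CPM in mutant libraries, and its log2 change ran from -1.02 to -0.35. Low and high side differences were -1.20 and -0.27 for ING4, 0.74 and 0.20 for MTA2, 0.98 and 0.26 for ATAD2, and 0.88 and 0.38 for ESCO2.

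Levels were compared between genes as CPM per kilobase of merged exons. SMARCD2, a core SWI/SNF subunit, was the highest at a mean of 64.1 over the 5 libraries (51.8 to 70.7), followed by HDAC1 at 44.4 and BRD2 at 41.6. The ranges of HDAC1 (35.8 to 48.9) and BRD2 (34.1 to 46.4) overlapped, and that of SMARCD2 lay above both. KAT2A was the highest acetyltransferase, at 31.9. HDAC8 (0.585) and HDAC10 (0.769) were lowest among the genes past the filter over all mutant libraries, again with overlapping ranges. HDAC9 was lower still. With the longest transcript as gene length, SMARCD2, HDAC1 and BRD2 kept ranks 1 to 3, and HDAC8 moved from rank 42 to 39.

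**Figure D4:**
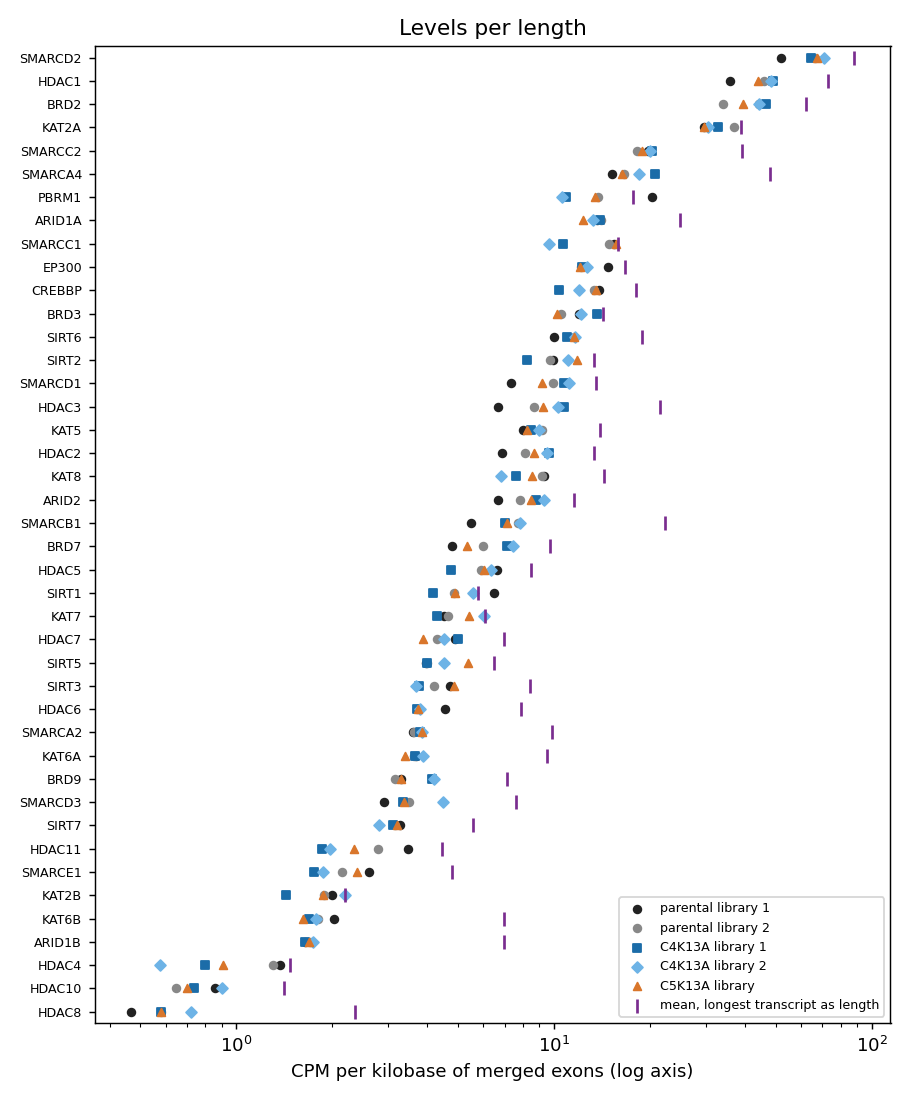
CPM per kilobase of merged exons (x axis, log scale) of 42 genes in each library, ordered by mean, with a bar for the mean when the longest transcript is the gene length. SMARCD2 leads at a mean of 64.1 and HDAC8 is last at 0.585, and the spread between genes is far wider than the spread between libraries of 1 gene.

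Paralogues differed in level, and the order within 9 of the 10 pairs was the same in every library. The exception was CREBBP and EP300, at a mean log2 ratio of -0.02 per kilobase (-0.24 to 0.16 over the libraries) whose sign also depended on the gene length used. KAT2A was 17.0-fold above KAT2B and HDAC1 5.20-fold above HDAC2 (17.7 and 5.46 with the longest transcript as gene length). BRD2 was 3.55-fold above BRD3 and ARID1A 7.96-fold above ARID1B (4.38 and 3.58 with that length). SMARCA4 was 4.65-fold above SMARCA2, with log2 ratios of SMARCA2 over SMARCA4 from -2.46 to -2.08 over the libraries. HDAC5 was 6.24-fold above HDAC4 on average, and the log2 ratio of HDAC4 over HDAC5 was -2.27 and -2.18 in parental, -2.57 and -3.46 in C4K13A and -2.73 in C5K13A. All mutant libraries were lower in this ratio. They were also lower for HDAC1 over HDAC2, at 2.34 in each against 2.38 or more in parental. For KAT6A over KAT6B they were higher, at 1.07 to 1.12 against 0.86 and 1.00. In both of these pairs the mutant libraries lay closer to the nearer parental library than the other parental library did. In the remaining pairs mutant and parental libraries overlapped. Separation is common among 5 libraries: of all single genes tested, 13.6% were separated upwards and 14.9% downwards. KAT2A over KAT2B ranged from 3.79 to 4.51 with the groups overlapping. SMARCC1 over its partner SMARCC2 had log2 ratios of -0.35 and -0.29 in parental, -0.93 and -1.06 in C4K13A and -0.27 in C5K13A. No test was run on these ratios.

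**Figure D5:**
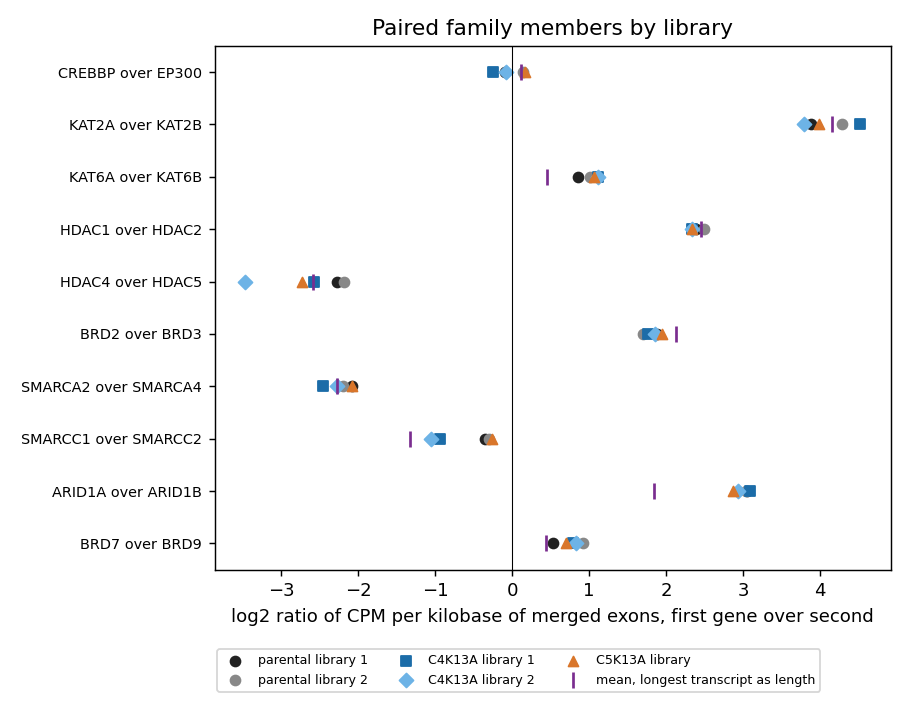
Log2 ratio of CPM per kilobase of merged exons between 10 pairs of related genes (x axis, first gene over second) in each library, with a bar for the mean ratio when the longest transcript is the gene length. The C4K13A points of SMARCC1 over SMARCC2 stand apart at -0.93 and -1.06, and KAT2A over KAT2B is the largest ratio in favour of the first gene.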

How the data were processed

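The authors deposited whole-number counts of reads per gene for 5 libraries, not normalized. Per the submitters' processing notes, reads were handled with bcl2fastq and STAR (version 2.5) and counted with featureCounts (1.4.6-p5, Subread). For build, annotation and strand setting, no value is given in the sources used here. Symbols came from a table of gene names and from GENCODE v29 (GRCh38), which gave chromosomes, exon lengths and neighbours. Of 58812 identifiers, 3515 were in neither.

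Counts were tested in R 4.3.3 with edgeR 4.0.16 (filterByExpr with a minimum count of 10, TMM factors, glmQLFit with its legacy setting, glmQLFTest) and Benjamini-Hochberg adjustment over all genes tested, at 0.05. All mutant against parental libraries used 2 groups (3 residual degrees of freedom), and the other comparisons 1 fit of 3 groups (2 residual degrees of freedom). SE is the size of the log2 fold change over the root of F. CPM values use TMM-scaled totals. Alternatives were other factors and filters, DESeq2 1.42.0, limma-voom (limma 3.58.1), a replicate block, removal of RNA classes, summed C4K13A libraries, a 3-group fit, a covariate for mitochondrial ribosomal RNA (split at 200 CPM) and each library left out. The legacy setting was taken as main because it gave the 42 calls of earlier results on these data. The newer edgeR setting, which gave 57, was added after the data were seen. In simulated counts drawn with a dispersion fitted to expression level, the share of false calls stayed under the threshold. With gene-wise dispersions that share exceeded the threshold in all 4 comparisons, so an adjusted p under 0.05 may understate the false calls. The simulation first missed its pass mark with gene-wise dispersions. The mark was then held to the other kind, with changed genes drawn only above a low level.

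The genes and lists were chosen with earlier results of these data known. Named were the 2 genes of each family with the smallest p over all mutant libraries, those highest and lowest per length, any below the filter, any called, and from each further list the called genes or the 2 with the smallest p. BRD7, the clone-specific values of BCL11B and the per-length values of HDAC1, BRD2, HDAC8 and HDAC10 were added after their values were seen. Promoters are from RefSeq on GRCh38.p14. Libraries were compared in pairs by chi-square over genes, and none was a duplicate of another.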

Additional observations from a re-analysis of the deposited data

How the results depend on the processing

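The number of genes called over the whole table depended on the setting, and the values of the genes described here moved with it too. For all mutant libraries, 42 genes became 1167 without a filter on low counts, 2 at 5 CPM, 555 by DESeq2, 11 by limma-voom, 105 in the 3-group fit, 11 with C4K13A summed, 71 with the covariate, and 0 to 130 with 1 library left out. Of the acetylation and SWI/SNF genes, 1 (HDAC4) was called without the filter and 0 under every other alternative, and their median log2 change was -0.029 at 5 CPM. For C4K13A, 159 became 1346, 32, 745 and 86 under the first 4 alternatives, and 130 to 1667 with 1 library left out. Of the genes described, 2 were called without the filter (HDAC4 and PBRM1), 1 by DESeq2 (HDAC4), and 0 to 3 with 1 library left out, where the median ran from -0.012 to 0.090. Replicate numbers are shared by parental and C4K13A libraries, but nothing in the labels pairs them. Deviations of same-numbered libraries correlated at 0.27 over 22743 genes and at 0.029 over the 43 genes described here. With a replicate block, 885 genes were called, of which 1 was a gene described here (HDAC4, edgeR adjusted p 0.0246). For C5K13A against parental, 11 became 578, 0, 235 and 0, then 7 without mitochondrial, small and ribosomal RNA genes, 5 with the newer edgeR setting, and 41 to 668 with 1 library left out. For C5K13A against C4K13A, 15 became 423, 0, 182 and 0, 7 with the newer setting, and 51 to 155 with 1 library left out, where the median ran from -0.095 to 0.013. Small log2 changes turned sign with 1 library left out, over which EP300 ran from -0.26 to 0.028 and SIRT1 from -0.41 to 0.0050 (positive without parental library 1), KAT2A from -0.25 to 0.071 and BRD2 from -0.025 to 0.34 (turned without parental library 2), and KAT2B from -0.23 to 0.065 and BRD3 from -0.0072 to 0.20 (turned without C4K13A library 1). BRD7 in C5K13A was 0.0056 by limma-voom and ran from -0.16 to 0.17 with 1 library left out, above 0 without parental library 2 and without C4K13A library 1. With the longest transcript as gene length, log2 ratios became 0.11 for CREBBP over EP300, 0.46 for KAT6A over KAT6B, 2.45 for HDAC1 over HDAC2, 2.13 for BRD2 over BRD3, -1.32 for SMARCC1 over SMARCC2, 1.84 for ARID1A over ARID1B and 0.44 for BRD7 over BRD9. The cause of these shifts was not tested, except that a change of gene length acts on a ratio by construction.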
